A study of Oryctolagus cuniculus with 16 samples.

Results

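LOC103350994, LOC103346808 and LOC100353127 are the 3 genes listed for the largest lncRNA group of a competing endogenous RNA (ceRNA) network in rabbit Perthes disease. They were looked up by symbol in a table of 20255 genes, of which 3413 were typed as lncRNAs and 16842 as mRNAs. Only 2 of the 3 genes, LOC103350994 and LOC103346808, carried the type lncRNA. LOC100353127 was typed as an mRNA, so it was not admitted by the rule and is described separately, as the gene listed with them. The values come from total RNA of femoral head tissue of 5 Perthes rabbits and 3 control rabbits. Perthes rabbits were wild-type animals operated on at 8 weeks of age, when a tie was placed around the femoral neck and the ligamentum teres was cut, which deprives the femoral head of blood. The controls were wild-type rabbits, described as healthy, and their age and any sham operation are not given in the sources used here. The labels call the disease a genotype, although the groups differed by surgery. Each library was taken as 1 rabbit. Of the control libraries, 2 carry replicate number 2 in their titles, and their sample codes end in 2 and 3, so the one coded 3 was taken as control rabbit 3. That these are separate rabbits rests on the codes.

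A long non-coding RNA is a transcript that is not translated into protein. In the ceRNA model, such a transcript carries sites for a miRNA and binds it, so that fewer copies of that miRNA are left to repress mRNAs with the same sites. A type of lncRNA in an expression table is an annotation call, which can change when a gene model is revised. Perthes disease is an avascular necrosis of the femoral head, an epiphysis that holds cartilage, bone and blood-forming marrow.

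Values are counts scaled to CPM, the usual unit of library-scaled counts, by the TMM method, and library totals ranged from 26757087 to 29461482 counts, so that 1 count was worth from 0.0333 to 0.0374 CPM. The tissue label was checked against marker lists. The summed chondrocyte markers, led by the type II collagen gene COL2A1, lay between 35109 and 142326 CPM in all Perthes libraries and between 46135 and 65584 CPM in all control libraries. The summed osteoblast markers, led by the type I collagen gene COL1A1, were between 46070 and 145412 CPM and between 73816 and 92317 CPM. Both groups thus held RNA of the chondrocyte and osteoblast lists, the latter led by a gene that is not restricted to bone. Among the 15305 genes that passed a low-count filter, 6.21% had an adjusted p below 0.05 with a higher level in Perthes rabbits and 8.86% with a lower level (edgeR's quasi-likelihood test with Benjamini-Hochberg adjustment), and 31.9% had an unadjusted p below 0.05. Scaled by library totals alone, the 951 higher and 1356 lower calls became 678 and 1705.

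LOC103350994 had 45.1, 31.2, 71.7, 6.44 and 75.7 CPM in Perthes rabbits 1 to 5 and 2.36, 3.10 and 3.06 CPM in control rabbits 1 to 3. All Perthes rabbits lay above all controls, and Perthes rabbit 4 was the lowest of its group. The group means were 46.0 ± 28.8 CPM (SD, n = 5) and 2.84 ± 0.418 CPM (SD, n = 3), and the log2 fold change of the fit across all genes was 4.02 with a standard error of 0.74. Without Perthes rabbit 4 it was 4.30. The network genes were selected on their difference between these same groups, in counts of these rabbits, so this contrast is a description and carries no test. As background, 3.8% of the 1289 tested lncRNAs had groups that did not overlap with the Perthes rabbits higher, and 2.25% had a log2 fold change above 2.

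LOC103346808 was a scarce transcript, with counts of 41, 36, 22, 65 and 58 over the Perthes rabbits in order of number and counts of 4, 5 and 16 over the controls. These counts correspond to 1.38, 1.35, 0.808, 2.36 and 1.97 CPM and to 0.143, 0.176 and 0.532 CPM. Again no Perthes rabbit overlapped a control, but here Perthes rabbit 4 was the highest of its group and Perthes rabbit 3 the lowest. The means were 1.58 ± 0.604 CPM (SD, n = 5) and 0.284 ± 0.216 CPM (SD, n = 3), with a log2 fold change of 2.45 and a standard error of 0.56. Counting error alone was wide at this depth. The exact 95% Poisson interval ran from 0.506 to 1.22 CPM in Perthes rabbit 3 and from 0.304 to 0.864 CPM in control rabbit 3, so these closest rabbits of the groups were not separated by counting error alone. Control rabbit 3 held most of the control counts, and without it the log2 fold change was 3.27.

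The gene listed with them, LOC100353127, had 53.2, 433, 175, 142 and 89.9 CPM in Perthes rabbits 1 to 5 and 1017, 410 and 589 CPM in control rabbits 1 to 3. It moved the other way from the lncRNAs, and Perthes rabbit 2 lay above control rabbit 2, so the groups overlapped. The means were 179 ± 150 CPM (SD, n = 5) and 672 ± 312 CPM (SD, n = 3). This gave -1.91 as the log2 fold change, with a standard error of 0.60, and it was -2.55 without Perthes rabbit 2. The study required a size above 2 together with an FDR below 1e-05. The fitted size did not reach 2, and the FDR rule was not assessed here for a gene listed from this contrast. Perthes rabbit 2 held 47.3% of the Perthes counts of this gene.

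**Figure D1:**
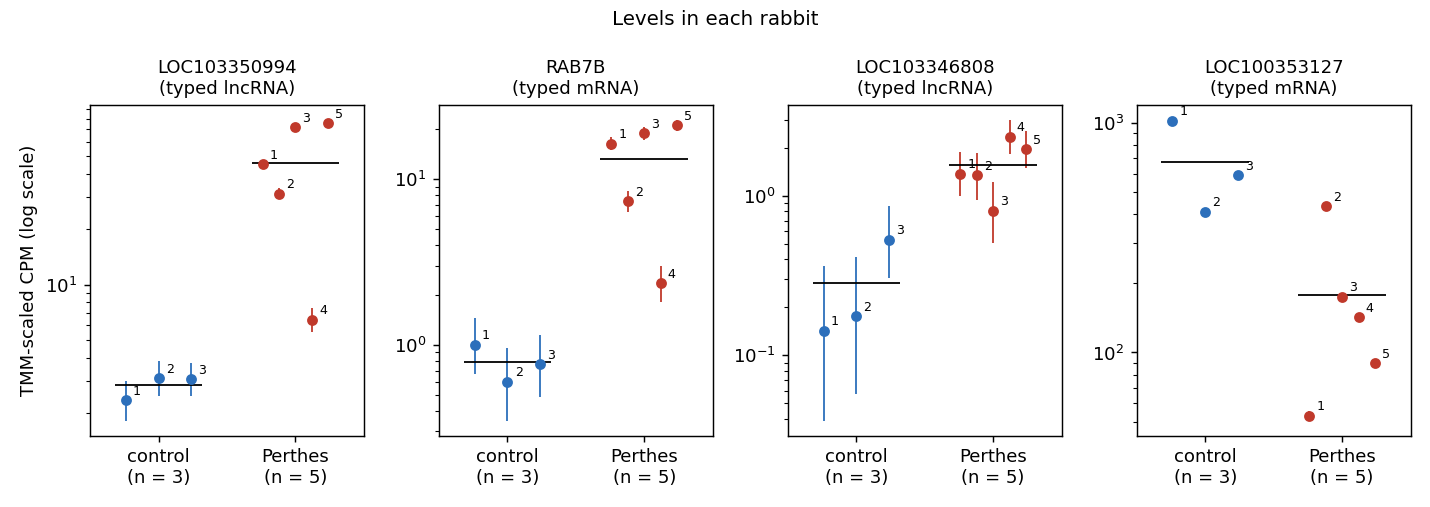
CPM (log scale) of LOC103350994, RAB7B, LOC103346808 and LOC100353127 in each rabbit, with rabbit numbers beside the points, exact 95% Poisson intervals as bars and arithmetic group means as lines. LOC103350994 and LOC103346808 had no overlap between 5 Perthes and 3 control rabbits, whereas for LOC100353127 Perthes rabbit 2 (433 CPM) exceeded control rabbit 2 (410 CPM).

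The profiles over the 8 libraries were compared by the root mean square difference of log2 CPM after each gene was centred on its own mean. This measure of likeness includes the group difference, so it is a description. The nearest of 15304 other genes to LOC103350994 was RAB7B, at 0.34 log2 units, where the median gene was at 2.04. RAB7B (gene 100349731, typed mRNA) encodes a small GTPase of the late endosome and lysosome that is related to RAB7A and is known from monocytes and macrophages. The next nearest were PRSS56, a serine protease gene, at 0.37 and MEIS3, a homeobox transcription factor gene, at 0.43. LOC103346808 ranked 662nd, at 1.49, and LOC100353127 ranked 14792nd, at 3.15.

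RAB7B had 16.3, 7.34, 18.9, 2.36 and 21.1 CPM in Perthes rabbits 1 to 5 and 1.00, 0.599 and 0.765 CPM in control rabbits 1 to 3, the same order of Perthes rabbits as LOC103350994. Its log2 fold change was 4.06 with a standard error of 0.73. The ratio of LOC103350994 counts to RAB7B counts, not corrected for length, was 2.76, 4.26, 3.79, 2.72 and 3.58 in Perthes rabbits and 2.36, 5.18 and 4.00 in controls. The ratio averaged 3.42 ± 0.667 (SD, n = 5) and 3.84 ± 1.42 (SD, n = 3), and its ranges overlapped although both genes were many times higher in Perthes rabbits. RAB7A, the ubiquitous relative, had 144, 59.6, 89.4, 73.4 and 102 CPM in Perthes rabbits and 67.6, 53.0 and 65.0 CPM in controls. These groups overlapped, and its log2 fold change was 0.60 with a standard error of 0.28. RAB7A and RAB7B were looked at after the nearest profile was known, so no test is given for them.

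**Figure D2:**
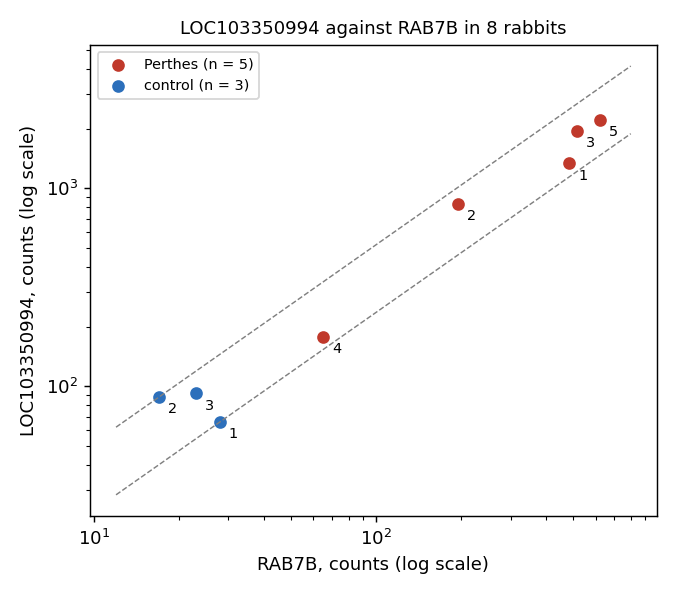
Counts of LOC103350994 against counts of RAB7B, both on log scales, for the 5 Perthes and 3 control rabbits, with dashed lines at the lowest (2.36) and highest (5.18) ratio of the 8 rabbits. Perthes rabbit 4 (177 and 65 counts) lay between the controls and the other Perthes rabbits on both axes.

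RefSeq's gene table for mOryCun1.1, a rabbit assembly other than the authors', gives the gene ID 103350994 the symbol RAB7B and the type protein-coding, with 5 transcripts. The ID under which the deposited table lists RAB7B, 100349731, has no entry there. The deposited table gives LOC103350994 no pathway, function or description. When both IDs were summed, an alternative chosen after seeing the data, the log2 fold change was 4.03 with a standard error of 0.73. The summed level averaged 59.3 ± 36.7 CPM (SD, n = 5) against 3.63 ± 0.242 CPM (SD, n = 3) for controls. Such a type was not common among the lncRNAs tested. The annotation held the IDs of 307 of the 1289 tested lncRNAs and typed 279 of them as lncRNA, 27 as protein-coding and 1 as another kind. LOC103346808 has no entry in it. Coordinates are not given, because the annotation is of another assembly than the one the authors used.

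Osteoclast and macrophage markers were measured beside LOC103350994, since RAB7B is known from that lineage. The summed osteoclast markers, led by the cathepsin K gene CTSK, were 3290, 3089, 3188, 1529 and 4369 CPM in Perthes rabbits 1 to 5 and 717, 1259 and 1231 CPM in control rabbits. The groups did not overlap, and Perthes rabbit 4 was the lowest of its group, as it was for LOC103350994. Of the 6 osteoclast markers, 6 were tested and 2 were called higher, where 6.21% of all tested genes were. The summed macrophage markers, led by CSF1R, were 1339, 842, 1044, 419 and 1225 CPM and 603, 540 and 484 CPM. Perthes rabbit 4 lay below all controls there, and the other 4 Perthes rabbits above them. That rabbit also had the lowest adipocyte, T cell and skeletal muscle sums of its group, at 129, 6.59 and 3.49 CPM. Its low place was thus not particular to osteoclast and macrophage markers, and its chondrocyte sum was the highest of its group, at 142326 CPM. Of the 8 macrophage markers tested, 3 were called higher and 2 lower, against 6.21% and 8.86% of all tested genes, and TIMD4, a receptor of resident macrophages and one of the lower ones, had between 0 and 10 counts in Perthes rabbits and between 590 and 724 counts in controls. The part of these cells in the level of LOC103350994 was not tested, and in bulk tissue more cells of a type and more RNA per cell cannot be told apart.

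LOC103346808 had other nearest genes, whose order is uncertain because its counts, 4 to 65 per library, had wide counting error. Its nearest profile of 15304 was that of an unnamed lncRNA, BGIG9986_26940, at 0.27 log2 units, where the median gene was at 1.30. COL5A3, which encodes a chain of the fibrillar collagen type V, followed at 0.34 and GLIS3, a zinc finger transcription factor gene, also at 0.34. COL5A3 ranged from 179 to 556 CPM in Perthes rabbits and from 39.3 to 93.7 CPM in controls, with a log2 fold change of 2.40. BGIG9986_26940 ranged from 6.13 to 17.7 CPM and from 2.11 to 3.92 CPM. LOC103350994 was farther from LOC103346808 than the median gene, at 1.49. The summed fibroblast and stromal markers, led by the type III collagen gene COL3A1, lay between 14700 and 26046 CPM in Perthes rabbits and between 1628 and 8974 CPM in controls. Of the 6 markers, 2 were called higher and 0 lower, where 6.21% of all tested genes were called higher. Control rabbit 3 had the highest sum of the controls, as it had for LOC103346808, but among Perthes rabbits the sum was highest in rabbit 1 and lowest in rabbit 2, whereas LOC103346808 was highest in rabbit 4 and lowest in rabbit 3. Their part in its level was not tested.

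**Figure D3:**
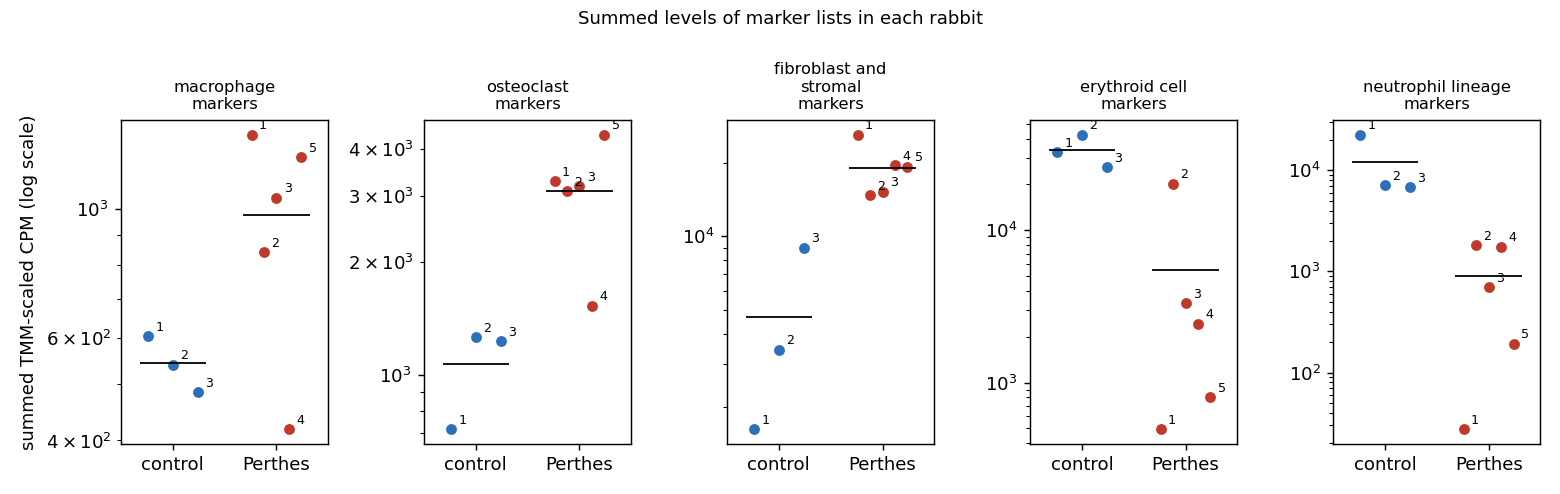
Summed CPM (log scale) of 5 lists of cell type markers in each rabbit, with rabbit numbers beside the points and group means as lines. Perthes rabbit 4 had the lowest macrophage (419 CPM) and osteoclast (1529 CPM) sums of its group, and Perthes rabbit 2 had the highest erythroid sum (20249 CPM) of its group.

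LOC100353127 had a profile closest to those of histone genes. Its 3 nearest profiles were those of LOC100358742, described in the table as histone H2AX, at 0.18 log2 units, LOC103350067, described as histone H3, at 0.20, and LOC100345205, described as a histone H2A, at 0.22, where the median gene was at 1.42. The table describes LOC100353127 itself as uncharacterized, but gives it disease and pathway labels that it also gives to histone H3 genes. Core histones package DNA, and the genes for the canonical forms are read mainly while DNA is replicated, whereas the variant H3.3 is made throughout the cell cycle. A total of 16 genes carried both labels, and 6 of them were described as H3.3. The other 10 included LOC100353127. These classes were formed after the values were seen, so they carry no test.

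The summed level of these 10 genes was 245, 2064, 716, 605 and 422 CPM in Perthes rabbits 1 to 5 and 4622, 2868 and 2885 CPM in controls, with no overlap. LOC100353127 made up from 21.0% to 24.4% of that sum in Perthes rabbits and from 14.3% to 22.0% in controls. The H3.3 genes summed to 437 ± 27.0 CPM (SD, n = 5) and 545 ± 57.1 CPM (SD, n = 3), a smaller difference, and their groups did not overlap either, at 395 to 459 CPM in Perthes rabbits and 504 to 610 CPM in controls. Of the 10 genes, 8 were tested, and their log2 fold changes ran from -2.39 to -1.42 with a median of -1.95. The 6 H3.3 genes ran from -0.76 to 0.35 with a median of -0.25. Both ends were genes of few counts. LOC100357927, at -0.76, had at most 55 counts in a Perthes and 72 in a control library. LOC100354792, at 0.35, had at most 24 and 13. LOC100341005, at -0.14, had at most 20 in either group. The better counted H3-3A, H3F3B and LOC100346558 were at -0.31, -0.18 and -0.58.

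**Figure D4:**
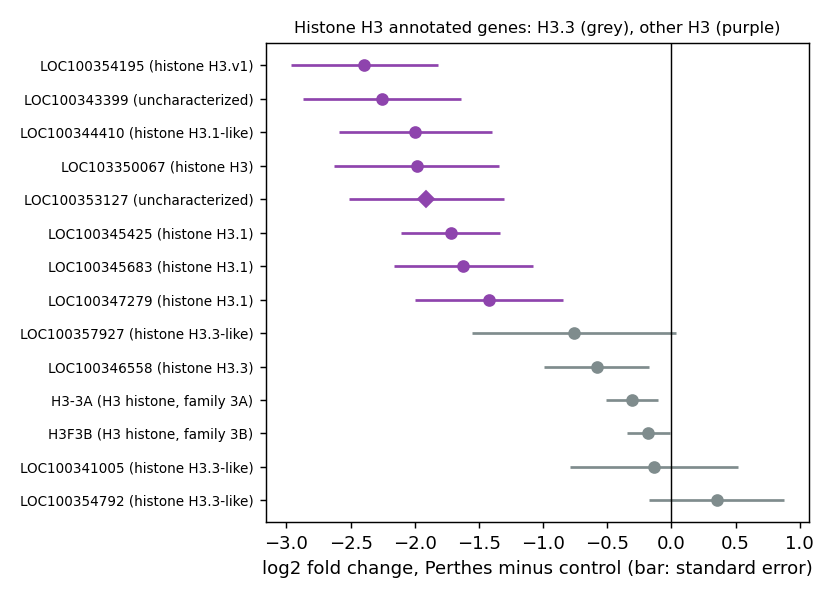
Log2 fold change between Perthes and control rabbits, with its standard error, for the 14 tested genes with histone H3 labels. The 8 genes not described as H3.3 (purple, LOC100353127 as a diamond) lay between -2.39 and -1.42, and the 6 H3.3 genes (grey) between -0.76 and 0.35. The H3.3 genes at both ends, LOC100357927 and LOC100354792, had few counts.

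The level of LOC100353127 itself is uncertain. An expected count divides ambiguous reads between candidate genes, and the value of LOC100353127 was a whole number in 0 of 8 libraries, whereas LOC103350994, LOC103346808 and RAB7B were whole in 8 of 8. Over the table, 86.3% of genes were whole in all libraries, within a tolerance of 1e-06. The genes with the 3 nearest profiles, LOC100358742, LOC103350067 and LOC100345205, were whole in 0, 1 and 0 of 8 libraries. Of the 10 H3 genes not described as H3.3, 6 were whole in no library, as were 4 of the 6 H3.3 genes. Which genes shared reads with LOC100353127, and whether such sharing made these profiles more alike, was not tested. As background to the histone sum, 6 genes of DNA replication and division, also chosen after the values were seen, summed to between 255 and 707 CPM in Perthes rabbits and between 1461 and 1692 CPM in controls. MKI67, a marker of dividing cells, was at 146 ± 98.4 CPM (SD, n = 5) and 827 ± 39.1 CPM (SD, n = 3).

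Erythroid, neutrophil, and megakaryocyte and platelet markers were also lower in Perthes rabbits, whereas lymphocyte sums overlapped between the groups. The B cell and precursor sum ranged from 51.9 to 87.8 CPM in Perthes rabbits and from 58.6 to 106 CPM in controls. The T cell sum ranged from 6.59 to 17.8 CPM and from 12.4 to 25.6 CPM. Of the B and T cell markers tested, 1 of 7 and 0 of 6 were called lower, against 8.86% of all tested genes. The summed erythroid markers, led by the globin gene HBB2, were 497, 20249, 3324, 2437 and 804 CPM in Perthes rabbits 1 to 5 and 32506, 42348 and 25972 CPM in controls. The order of the Perthes rabbits was that of LOC100353127, from rabbit 2 down to rabbit 1. Among controls the orders differed, since control rabbit 2 had the lowest level of LOC100353127 and the highest erythroid sum. All 9 erythroid markers had a lower level in each Perthes rabbit than in each control, as had 13.9% of all tested genes, and 1 of the 9 was called lower, where 8.86% of all tested genes were. The neutrophil sum ranged from 27.7 to 1815 CPM in Perthes rabbits and from 6811 to 22442 CPM in controls, and 4 of 8 tested markers were called lower, against the same 8.86%. Its order in Perthes rabbits, from rabbit 2 through 4, 3 and 5 to rabbit 1, was not that of LOC100353127. The megakaryocyte and platelet sum ranged from 6.62 to 98.8 CPM and from 156 to 428 CPM, with 2 of 5 tested markers called lower, again against 8.86%. Its order in Perthes rabbits was that of LOC100353127 too, so the shared order was not particular to the erythroid sum. Control rabbit 1 was the highest control for both, but the lowest was control rabbit 3 for this sum and control rabbit 2 for LOC100353127. The part of these cells in the histone levels was not tested.

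The genes beside the members on the chromosome were examined, since a shared region can be read together. The mOryCun1.1 annotation gave 8 neighbours, the nearest 2 on each side of LOC103350994 and LOC100353127, of which 4 were in the table. CTSE, the cathepsin E gene, is the first gene on one side of LOC103350994, and SLC26A9, a chloride transporter gene, is the second on the other side. CTSE had 152 ± 69.6 CPM (SD, n = 5) and 210 ± 105 CPM (SD, n = 3), a log2 difference of -0.47 with an error of 0.46 (edgeR adjusted p = 0.512). SLC26A9 was at -0.53 (standard error 0.69, adjusted p = 0.625 from edgeR). Neither passed the test, and both groups overlapped for both genes.

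On the sides of LOC100353127 lie LOC100345719, described as histone H4 and the first gene on its side, and LOC100347785, described as histone H2B and the second. LOC100347785 was lower in Perthes rabbits, at 78.0 ± 44.8 CPM (SD, n = 5) against 469 ± 155 CPM (SD, n = 3), with -2.59 as its log2 difference and 0.46 as its error (edgeR adjusted p = 0.0134). LOC100345719 was also lower, at 52.8 ± 29.1 CPM (SD, n = 5) against 152 ± 49.1 CPM (SD, n = 3), with -1.53 as its log2 difference and 0.44 as its error (edgeR adjusted p = 0.0468). No control overlapped a Perthes rabbit for either gene. The expected counts of both genes were whole in 0 of 8 libraries, as were those of LOC100353127, so their levels are uncertain in the same way. Whether these genes shared reads was not tested. Neither call held without control rabbit 1 or without control rabbit 2, where edgeR called 0 neighbours and 2 had an unadjusted p below 0.05. Those refits called 257 of 15632 and 0 of 15594 tested genes, so few or no calls were left in the whole table either.

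A ceRNA acts through the miRNA machinery, which was examined as a list of 30 genes that make, load, use or degrade miRNAs. Of these, 27 were in the table and 26 were tested, and 0 were called higher and 5 lower in Perthes rabbits, or 19.2% against the 15.1% of all tested genes called in either direction and the 8.86% called lower. The groups did not overlap for 11 of the 26, all lower in Perthes rabbits, where 13.9% of all tested genes did so. The summed level of the list lay between 1617 and 2046 CPM in Perthes rabbits and between 2106 and 2199 CPM in controls. The median log2 fold change of the list was -0.26, and that of all tested genes 0.02. AGO2, the Argonaute protein that cuts target RNA, was lower, at 39.5 ± 4.68 CPM (SD, n = 5) against 70.3 ± 8.70 CPM (SD, n = 3), with -0.83 as its log2 difference and 0.15 as its error (edgeR adjusted p = 0.0137). TNRC6B, which links Argonaute to the deadenylases, fell by 0.67 on the log2 scale (adjusted p = 0.0217 from edgeR). DROSHA, the nuclease of the first cleavage of miRNA precursors, fell by 0.48 (adjusted p = 0.0455 from edgeR).

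TUT7, which adds uridines to precursor ends, and DCP2, the decapping enzyme, fell by 1.11 and 0.94 on the log2 scale (adjusted p = 0.0139 and 0.0445 from edgeR). Other core genes did not pass the test. DICER1, which makes the second cleavage, was at -0.24 (adjusted p = 0.244 from edgeR), although its levels did not overlap between the groups. XPO5, the exporter of precursors, was at -0.13 and AGO3 at 0.19 (adjusted p = 0.519 and 0.630 from edgeR). DGCR8, the partner of DROSHA, was at -0.66 (adjusted p = 0.0531 from edgeR), close to the threshold, and over 13 alternatives its adjusted p ran from 0.0222 to 0.254 and was below 0.05 in 4 of them, DESeq2 and scaling by library totals alone included. Over the 13 alternatives the adjusted p of AGO2 ran from 4.9e-05 to 0.158 and that of DROSHA from 0.0095 to 0.316. Without control rabbit 1 or control rabbit 2, 0 of the list were called by edgeR, with 8 at an unadjusted p below 0.05, and without Perthes rabbits 3, 4 and 5 in turn 2, 3 and 2 were. Over all tested genes, 257 of 15632 and 0 of 15594 were called without control rabbits 1 and 2. Without Perthes rabbits 3, 4 and 5 in turn, 1031, 2690 and 901 of all tested genes were called.

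**Figure D5:**
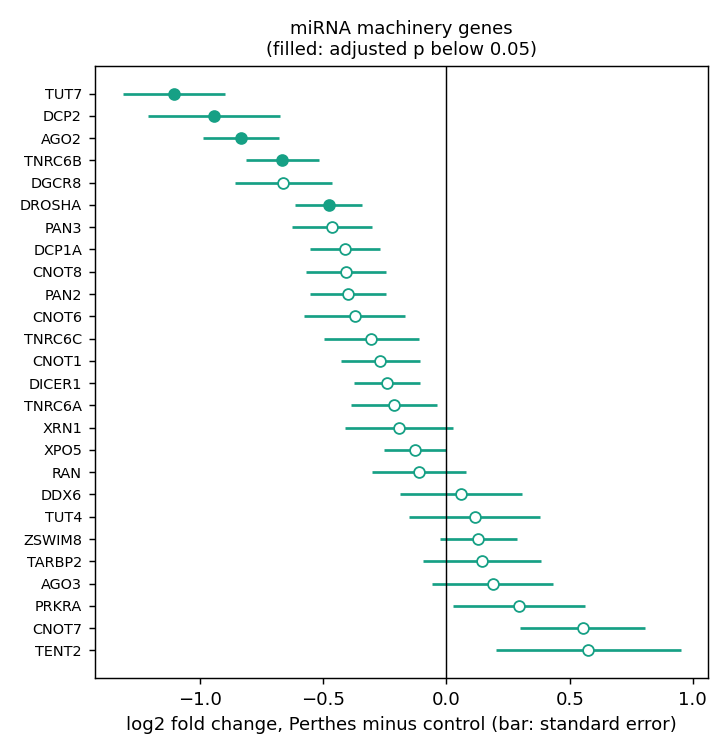
Log2 fold change between Perthes and control rabbits, with its standard error, for the 26 tested miRNA machinery genes. Filled points mark the 5 genes with an adjusted p below 0.05 (TUT7, DCP2, AGO2, TNRC6B and DROSHA), all of which lay below 0.

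The mRNAs that the study's text names as hubs of the network were set beside the lncRNAs. They were selected for their difference between these same rabbits, and network pairs were required to join an lncRNA and an mRNA that changed in opposite directions, so their direction is not independent evidence. Of 15 hub mRNAs, 14 were tested, 3 were called higher and 8 lower, where 15.1% of all tested genes were called in either direction. Without control rabbit 1 or control rabbit 2, edgeR called 0 of them, with 13 at an unadjusted p below 0.05, and without Perthes rabbit 3 it called 7. The same refits called 257 of 15632, 0 of 15594 and 1031 of 15195 tested genes. Of the 14, 8 had a log2 fold change below 0 and 6 above, and the median was -2.39. LTB4R, a leukotriene B4 receptor gene, ran from 1.76 to 15.5 CPM in Perthes rabbits and from 35.8 to 100.2 CPM in controls, with a log2 fold change of -3.04. ALOX5, the first enzyme of leukotriene synthesis, was at -2.32 and SELP, the P-selectin of platelets and endothelium, at -2.67. On the other side, ELN, which encodes elastin, ran from 8.59 to 25.7 CPM and from 1.68 to 2.89 CPM, with a log2 fold change of 2.73. FOLR2, a folate receptor of macrophages, had a log2 fold change of 2.27 and overlapping groups, since its lowest Perthes rabbit was at 20.4 CPM and its highest control at 30.5 CPM. AVP did not pass the low-count filter.

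The miRNAs that the text names were read in the small RNA libraries of Perthes rabbits 1 to 3. The labels do not say whether a small RNA library and a total RNA library with the same number came from the same rabbit. Control small RNA libraries were not analysed here, so no comparison between groups was made. ocu-miR-574-5p had 343, 227 and 247 RPM (reads scaled to library size), from 7401, 4919 and 5433 counts. ocu-miR-324-3p was far scarcer, with 59, 44 and 13 counts, or 2.73, 2.04 and 0.591 RPM. ocu-miR-12093-3p had 5, 0 and 0 counts, and a count of 0 allows up to 0.139 and 0.136 RPM (3 counts, counting error only) in Perthes rabbits 2 and 3. The 3 named miRNAs thus spanned from a clear level down to the limit of detection.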

How the data were processed

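Total RNA was depleted of ribosomal RNA and made into directional libraries; whether strand was used in counting is not given in the sources used here. The authors filtered reads with SOAPnuke, aligned them to a rabbit assembly by HISAT2 2.0.4, and deposited expected counts per gene from RSEM 1.1.17 and HTSeq 1.99.2 without normalization. The authors deposited raw read counts per miRNA and RPM values relative to a larger library total. Another 8 columns repeated the 8 used and were left out.

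Expected counts were rounded. Genes were filtered by filterByExpr, scaled by TMM and tested by the quasi-likelihood F-test of edgeR 4.0.16 (R 4.3.3), and p-values of 15305 genes were adjusted by Benjamini-Hochberg. The standard error was the log2 fold change divided by the square root of F. Log2 CPM used a prior count of 2. Libraries were taken as separate rabbits by their sample codes, although 2 control titles carry the same replicate number, and p-values measure the spread between these libraries. The biological coefficient of variation was 0.361. The fit was tested on simulated data. Tables were made with Python 3.11.15 and scipy 1.17.1. The alternatives were DESeq2 1.42.0, other scalings, no filter, a block for replicate number, and leaving out single rabbits.

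The members, gene lists and tests were chosen with earlier results of these data known. Named were the members, the machinery genes called and at most 6 others, the study's hub mRNAs, the 2 nearest annotated genes on each side, the 3 nearest profiles, and markers that lead a list. RAB7A, the H3 and replication genes, and TIMD4 were added after their values were seen.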

Additional observations from a re-analysis of the deposited data

Results flagged for a closer look

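In 61 sets of 5 Perthes rabbits, the gap of the highest or the lowest rabbit to its neighbour was compared with the range of the group, and 6 exceeded the critical share of 0.71, where chance gives about 1 set in 20. FHDC1 (0.817 of the range) was highest in Perthes rabbit 2, at 22.5 CPM against at most 7.27 CPM in the others. The summed erythroid markers (0.857) and the summed megakaryocyte and platelet markers (0.742) were also highest in Perthes rabbit 2, at 20249 and 98.8 CPM against at most 3324 and 30.4 CPM. BDKRB1, a bradykinin receptor gene (0.755), was highest in Perthes rabbit 4, at 12.6 CPM against at most 4.12 CPM. Of the miRNA machinery, PAN3 (0.797) and DDX6 (0.783) were highest in Perthes rabbit 1, at 41.5 CPM against at most 30.5 CPM and 293 CPM against at most 192 CPM. LOC103350994, LOC103346808 and LOC100353127 were not among them.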

How the results depend on the processing

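The log2 fold changes of LOC103350994 and LOC100353127 kept their sign under every alternative run. They ran from 3.76 to 4.30 and from -2.55 to -1.48 without 1 rabbit at a time. The value of -2.55, without Perthes rabbit 2, differed from the main -1.91 by more than its standard error of 0.60. The log2 fold change of LOC103346808 also kept its sign, and ranged from 2.14 to 3.27 without 1 rabbit at a time. It was highest without control rabbit 3, where it differed from the main 2.45 by more than its standard error of 0.56. With DESeq2, 3636 genes were called in place of 2307. Without the filter 3 machinery genes were called. With the replicate number as a block, 0 genes of the whole table, the machinery, the neighbours or the hub mRNAs were called by edgeR (3152, 3, 1 and 13 had an unadjusted p below 0.05), and the 3 log2 fold changes were 4.05, 2.16 and -1.93. In that fit Perthes rabbits 4 and 5 had no control of the same number. The contrast therefore rested on the rabbits numbered 1 to 3, with little left to estimate its error from. The numbers share no stated origin, and that of control rabbit 3 comes from its code alone. Deviations of same-numbered rabbits correlated at -0.317, 0.161 and -0.238. Perthes rabbits 1 and 3 correlated best with control rabbits 3 (0.435) and 1 (0.280). Perthes rabbit 2 correlated best with control rabbit 2 (0.161), but control rabbit 2 correlated best with Perthes rabbit 5 (0.184). Without 1 rabbit at a time, 0 to 2690 genes, 0 to 5 machinery genes, 0 to 2 neighbours and 0 to 12 hub mRNAs were called by edgeR. The whole-table count was 0 without control rabbit 2 (3722 with an unadjusted p below 0.05), 257 without control rabbit 1, and 1031 and 901 without Perthes rabbits 3 and 5. The machinery count was 0 without control rabbit 1 or 2, with 8 at an unadjusted p below 0.05 each. The neighbour count was 1 without Perthes rabbit 1, 3, 4 or 5 or control rabbit 3, and 0 without control rabbit 1 or 2, with 2 at an unadjusted p below 0.05. The hub count was 7 without Perthes rabbit 3 and 0 without control rabbit 1 or 2, with 13 at an unadjusted p below 0.05. Among 75 genes described and tested, DDX6 changed sign with library totals alone. The cause of these moves was not tested. Depth limited LOC103346808, with 4 to 65 counts per library.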
